A study of Rattus norvegicus with 12 samples.

Results

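Neurotensin is a short neuropeptide cut from a precursor encoded by *Nts*, and in the striatum it is made by projection neurons and acts against dopamine signalling, which psychostimulants raise. Its receptors are *Ntsr1*, a G protein-coupled receptor that signals mainly through Gq to phospholipase C, *Ntsr2*, a related receptor of lower affinity found largely in astrocytes, and *Sort1* (sortilin), a membrane sorting protein that binds neurotensin as well as many other ligands. The 4 genes were taken by symbol from a table of 17337 genes, and all 4 were present. Earlier results of these same libraries were known when they were chosen. *Nts* was selected on its fall in the comparison between 24 h and 12 h of abstinence, where it had the smallest p of all genes, and the 3 receptor genes were taken by name. The values of *Nts* in that comparison are therefore given as a description with no test.

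Each of the 12 libraries was the poly-A RNA of the whole striatum of 1 wild-type male Sprague–Dawley rat, in a series on gene expression early in abstinence from methamphetamine (MA). By their labels all 12 rats, the comparison group included, had self-administered MA for 16 days. The MA12 rats (numbers 21, 31, 4N and 7N) had 12 h of abstinence and the MA24 rats (9N, 14N, 15N and 16N) had 24 h. The other 4 rats (9, 11, 12 and 13) are labelled non-addicted, and neither the criterion nor the time from their last session is given in the sources used here, nor whether they belong to a group of the study named otherwise. Training began in 8-week-old rats, and the age at tissue collection is not given there. No library labelled as saline self-administration or as MA without abstinence was analysed here. The rats were kept on a 12-h light and dark cycle, so if the sessions ended at the same hour, the length of abstinence and the time of day cannot be told apart between MA12 and MA24. Rat numbers carry an N in all MA24 rats, in 2 of the 4 MA12 rats and in no non-addicted rat. The meaning of the N is not given, and for MA24 against the non-addicted rats it cannot be told apart from the group.

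The authors' raw read counts summed to between 17908962 and 23850284 per library. Levels are CPM, the count relative to the library's total after scaling by the trimmed mean of M-values, or log2 CPM (prior count 2). Group values are the mean and SD of 4 rats. Genes were called differentially expressed (DEGs) where edgeR's quasi-likelihood test over all genes tested gave a Benjamini-Hochberg adjusted p below 0.05 and levels differed at least 1.5-fold (fold change, FC). Markers of striatal projection neurons were abundant in every library, with a summed level of 11290 to 15870 CPM over 11 genes, and none of them was a DEG in any comparison. The summed level of 5 cortical markers was 6.69 to 15.9 CPM. That of 8 hypothalamic markers was 17.1 CPM in non-addicted rat 11 and 5.42 to 8.61 CPM in the other rats. Of these 8, *Pmch* and *Sim1* had no count in any rat, and *Pomc* had 55 to 106. Gene lengths were not at hand, so levels are compared within a gene and not between genes.

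The 250 bases before the start of *Nts* are shown because the gene is known to be switched by transcription factors that bind AP-1 and cyclic AMP response elements close to its start. They lie at chr7:39460889-39461138 on the minus strand of the RefSeq GRCr8 assembly and are written 5′ to 3′. Capitals mark the matches to an AP-1 motif, to a CRE-like motif and to the TATA motif, in this order.
Nts promoter: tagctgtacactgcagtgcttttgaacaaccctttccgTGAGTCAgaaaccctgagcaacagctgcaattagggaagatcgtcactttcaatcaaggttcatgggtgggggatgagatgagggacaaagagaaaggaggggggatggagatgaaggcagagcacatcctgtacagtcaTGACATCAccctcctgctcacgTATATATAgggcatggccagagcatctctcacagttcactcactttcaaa

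The AP-1 motif (TGANTCA, both strands) began at -212 from the start of *Nts* and was found in 6.36% of 27457 RefSeq promoters of the same length. The CRE-like motif (TGACNTCA, both strands) began at -72 and was found in 8.80% of them. A pair of overlapping TATA matches (TATANA) began at -50 and -48, a motif found in 24.1%. Of the receptor genes, *Sort1* held a CRE-like match at -241, and the windows of *Ntsr1* and *Ntsr2* held none of these motifs. The palindromic consensus of a glucocorticoid element was in none of the 4 windows and in 0.0291% of all. These are matches of letters, and no binding was measured.

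The *Nts* transcript was highest in the MA12 rats, intermediate in the non-addicted rats and lowest in the MA24 rats. In MA12 its level was 20.8 CPM in rat 21, 19.3 in rat 31, 14.1 in rat 4N and 12.0 in rat 7N, from 212 to 494 counts. In MA24 it was 5.64 CPM in rat 9N, 6.11 in rat 14N, 5.09 in rat 15N and 5.92 in rat 16N, from 99 to 131 counts. Every MA12 rat lay above every MA24 rat.

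In the non-addicted rats *Nts* stood at 11.5 CPM in rat 9, 18.1 in rat 11, 12.8 in rat 12 and 6.82 in rat 13. These rats covered most of the range between both abstinence groups, with rat 13 just above the MA24 rats and rat 11 among the highest MA12 rats. The coefficient of variation of the CPM was 37.7% in the non-addicted rats, 25.3% in MA12 and 7.81% in MA24. Counting alone gives about 6.23%, 5.22% and 9.26% at these counts, so the MA24 rats differed from each other by no more than counting error, and the rats of the other groups by more. The selection of *Nts* by its p favours a small spread within MA24 and within MA12, so these spreads are a description.

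**Figure D1:**
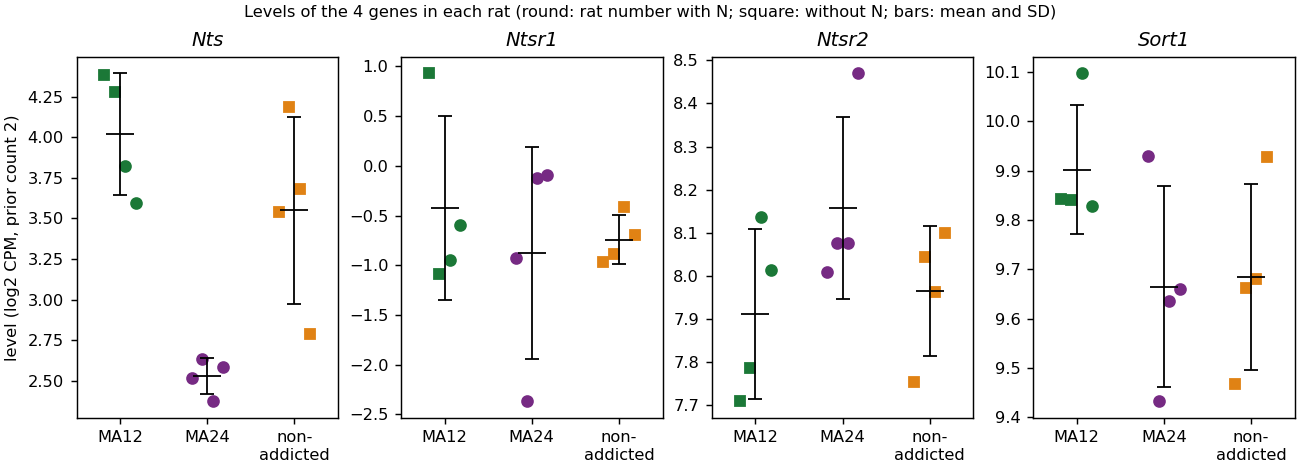
Levels of Nts, Ntsr1, Ntsr2 and Sort1 in each of the 12 rats (log2 CPM, prior count 2, a separate y axis for each gene), with round points for rat numbers with an N and square points for those without, and bars for the mean and SD of 4 rats. The Nts points of MA24 lie below all others, between 2.37 and 2.63, and the groups overlap for the other 3 genes.

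Between MA24 and MA12, the mean log2 CPM of *Nts* was 2.53 ± 0.11 against 4.02 ± 0.37 (n = 4 each), and the mean CPM was 2.91-fold higher in MA12. The edgeR log2FC was -1.54 with a standard error (SE) of 0.18. In all, 2.45% of the 10754 genes tested were DEGs in this comparison (1.72% lower in MA24 and 0.735% higher), and in 8.35% every MA24 rat was below every MA12 rat. *Nts* met both criteria, as its choice required. The MA12 rats without an N in their number stood at log2 CPM 4.38 and 4.28 and those with an N at 3.82 and 3.59. With only the rats numbered with an N (2 MA12 and 4 MA24) the log2FC was -1.18, and with the kind of number as a covariate it was -1.20.

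Between the non-addicted and the MA24 rats, which are the same MA24 rats as above, the edgeR log2FC of *Nts* was 1.11 (SE 0.23). The low MA24 values are those that *Nts* was selected on, so this difference is also given as a description with no p. The mean CPM was 2.16-fold higher in the non-addicted rats and the groups did not overlap, with 6.82 CPM as the lowest non-addicted and 6.11 as the highest MA24 level. Of 10744 genes, 0.456% were DEGs here (0.326% higher in the non-addicted rats), and 5.10% were higher with no overlap. The edgeR fit placed *Nts* among these DEGs, a call that rests on the values it was selected on and is no support. Leaving out 1 rat gave log2FC values of 0.86 to 1.30, and the call was lost without rat 11, 12, 9N, 15N or 16N.

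Between the non-addicted and the MA12 rats, which are again shared with the first comparison, *Nts* did not pass the test (log2FC -0.44, SE 0.22, 95% interval -0.90 to 0.03, edgeR adjusted p = 0.446). The MA12 values too were part of the selection, which favours a difference in this test. Rats 9 and 13 lay below all MA12 rats and rats 11 and 12 lay among them. In this comparison 0.251% of 10758 genes were DEGs. Against only the MA12 rats numbered without an N, the log2FC was -0.69 (edgeR adjusted p = 0.199).

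A level relative to other genes of the same library does not depend on how libraries are scaled, except through the prior count at low counts. Of the 11 other neuropeptide genes used, *Vip* (0 to 22 counts), *Npy* (2 to 24), *Gal* (0 to 34) and *Crh* (0 to 56) were near the floor. *Pdyn* and *Cartpt* were DEGs against the non-addicted rats in 1 comparison each, so this reference can move with the groups. The log2 level of *Nts* minus the mean of 11 other neuropeptide genes was 0.22 ± 0.36 in MA12, -1.16 ± 0.14 in MA24 and -0.19 ± 0.56 in the non-addicted rats (n = 4 each). The non-addicted rats stood 0.97 above the MA24 rats with no overlap, a description because of the selection on the MA24 values. They overlapped with the MA12 rats (difference -0.41, two-sided exact permutation p = 0.257, where 70 splits allow no p below 0.0286). Relative to 11 projection neuron markers the values were -4.73 ± 0.49, -6.23 ± 0.14 and -5.19 ± 0.68 in the same order. The corresponding differences were 1.04, with no test, and -0.46 (exact permutation p = 0.229), and in the first of these non-addicted rat 13, at -6.05, was close to the highest MA24 rat, at -6.07. In both tests against MA12, the MA12 values were part of the selection, which favours a difference.

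Summed markers of regions next to the dorsal striatum correlated with *Nts* over the 12 rats, with values given below. *Nts* is also known to be abundant in the ventral striatum, the septum and the extended amygdala, and in tissue pieces fewer cells of a kind and less RNA per cell cannot be told apart. The summed level of 7 markers of the septum and extended amygdala was 160 CPM in rat 21, 127 in rat 31, 73.9 in rat 4N and 81.5 in rat 7N of MA12. It was 63.8 to 85.1 CPM in the MA24 rats and 75.5, 186, 105 and 70.8 CPM in the non-addicted rats 9, 11, 12 and 13. The rats with the highest *Nts* (21, 31 and 11) had the highest marker sums.

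Within this list, 2 of 7 genes were DEGs between MA24 and MA12, both lower in MA24, beside 1.72% of all genes. They were *Prkcd* (log2FC -0.94, edgeR adjusted p = 0.0131), a protein kinase C isoform that marks neurons of the central amygdala, and *Crhr2* (log2FC -3.36, edgeR adjusted p = 0.0276), a receptor of the corticotropin-releasing hormone family found in the lateral septum. The median log2FC of the list was -0.91, against -0.02 over all genes tested, with 5 of 7 values below 0 and *Lhx8* (0.39) and *Nkx2-1* (0.02) above it. The call of *Crhr2* was lost in 10 of 17 alternatives, among them DESeq2 and those without rat 21, 14N, 15N or 16N. With all 3 groups in the fit 0 of 7 were DEGs, with the likelihood ratio test 4, and without rat 4N or rat 7N 5. Rats 4N and 7N had marker sums within the range of the MA24 rats and *Nts* levels of 14.1 and 12.0 CPM, where the highest MA24 level was 6.11. Among the rats numbered with an N, the median log2FC of the list was 0.01 with 0 of 7 DEGs, and that of *Nts*, the value it was selected on, was -1.18. This comparison has only 2 MA12 rats, and the part of regional composition in it was not tested.

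The 6 ventral striatal markers (*Crym*, *Dlk1*, *Nnat*, *Wfs1*, *Calcr* and *Drd3*) summed to 551 to 855 CPM in MA12, 617 to 716 CPM in MA24 and 575 to 979 CPM in the non-addicted rats. None was a DEG between MA24 and MA12, where 5 of 6 had a log2FC below 0 (median -0.64), and the 2 with the smallest p were *Calcr*, the calcitonin receptor (log2FC -2.98, edgeR adjusted p = 0.0740), and *Crym*, a thyroid hormone binding protein (0.29, adjusted p = 0.0900). All 6 were above 0 between the non-addicted and MA24 rats (median 0.95). Of them 1, *Calcr*, was a DEG (log2FC 3.55, edgeR adjusted p = 0.0354), beside 0.326% of all genes higher. This call was lost in 9 of 15 alternatives, among them the joint fit, 3 other filters and those without rat 9, 11, 12, 15N or 16N. In that comparison the septal list had a median of 0.75 and 0 of 7 DEGs. Among the rats numbered with an N, the ventral list had a median log2FC of 0.15 between MA24 and MA12.

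Across the 12 rats, the Pearson correlation of *Nts* with the summed level was 0.766 for the septal list, 0.528 for the ventral list and -0.787 for the projection neuron list, beside 0.490 for the thalamus and -0.623 for the oligodendrocyte list. For deviations from the group means the values were 0.844, 0.856, -0.794, 0.806 and -0.481 in the same order. Such values were not particular to regional markers. For these deviations the list furthest from 0 was that of the neurotensin-degrading peptidases (-0.899, and -0.544 across the 12 rats), and the receptor regulation list stood at -0.755 (-0.163 across the 12 rats). The projection neuron sum rests largely on 1 gene, *Ppp1r1b*, with 138409 to 203294 counts per rat where the list summed to 243423 to 345574. All points share library, dissection and group, so these correlations are descriptions. The part of regional composition in the *Nts* differences between MA24 and either other group was not tested.

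**Figure D2:**
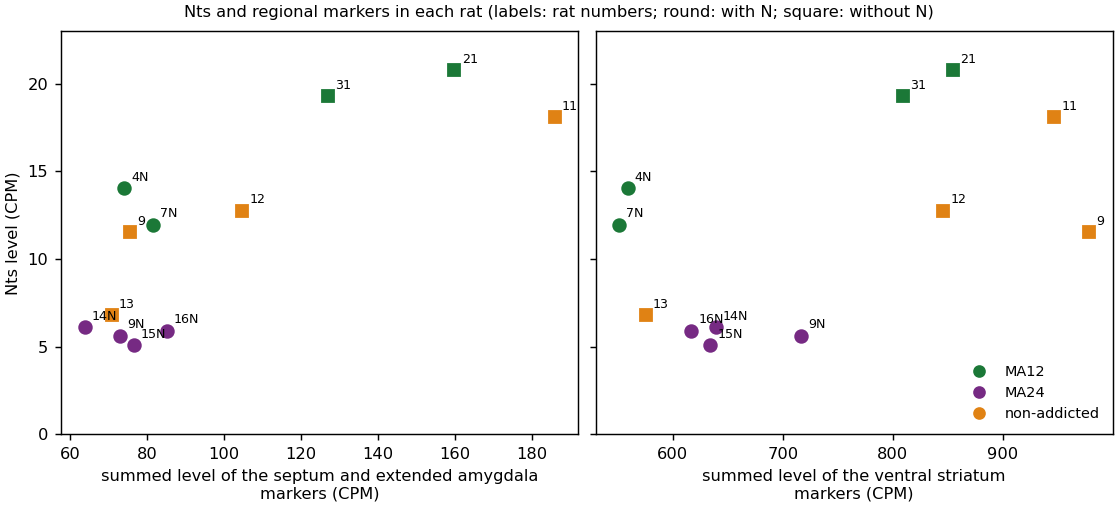
Nts level of each rat (CPM) against the summed level (CPM) of the septum and extended amygdala markers (left) and of the ventral striatum markers (right), with points labelled by rat number. On the left, rats 21, 31 and 11 have both the highest Nts levels and the highest marker sums. Rats 4N and 7N lie above the 4 MA24 rats at marker sums of 73.9 and 81.5 CPM on the left, within the MA24 range of 63.8 to 85.1 CPM.

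*Ntsr1*, the high-affinity receptor, was close to the limit of detection. Its counts were 43, 9, 9 and 10 in the MA12 rats 21, 31, 4N and 7N, then 10, 2, 16 and 16 in the MA24 rats 9N, 14N, 15N and 16N. The non-addicted rats 9, 11, 12 and 13 had 8, 9, 16 and 10. Rat 21, at 1.81 CPM, was alone above 1 CPM, and the groups overlapped in every comparison.

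The count of 43 in rat 21 has a 95% Poisson interval of 31.1 to 57.9, which does not reach the upper bound of 18.4 of the other MA12 rats. Such an interval covers counting error only. In cortex *Ntsr1* is known to mark deep-layer projection neurons. The summed cortical markers were 6.69 CPM in rat 21, from 159 counts, and 8.98 to 10.1 CPM in the other MA12 rats. The source of the *Ntsr1* reads of rat 21 was not tested.

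The log2 CPM of *Ntsr1* was -0.43 ± 0.93 in MA12, -0.88 ± 1.07 in MA24 and -0.74 ± 0.25 in the non-addicted rats (n = 4 each). The log2FC between MA24 and MA12 was -0.55 (SE 0.65, 95% interval -1.91 to 0.81, edgeR adjusted p = 0.641), and without rat 21 it was 0.28. The value between the non-addicted and MA12 rats was -0.64 (SE 0.57, 95% interval -1.84 to 0.56, edgeR adjusted p = 0.703), and without rat 21 it was 0.18. The value between the non-addicted and MA24 rats was -0.10 (SE 0.60, 95% interval -1.36 to 1.17, edgeR adjusted p = 0.947). A fall to 1/2 lies within all 3 intervals, so a change of that size is not excluded by these rats and counts. The coefficient of variation was 85.9% in MA12 and 64.8% in MA24, where counting alone gives 23.7% and 30.2%.

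*Ntsr2*, the astrocytic receptor, was well covered, with 4137 to 6711 counts per rat. Its level in MA12 was 209 CPM in rat 21, 221 in rat 31, 281 in rat 4N and 258 in rat 7N. In MA24 it was 257 CPM in rat 9N, 270 in rat 14N, 270 in rat 15N and 354 in rat 16N. The MA24 levels lay in the upper part of the MA12 range or above it, with rat 16N the highest of all 12.

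The non-addicted rats 9, 11, 12 and 13 had 216, 264, 249 and 274 CPM of *Ntsr2*, within the range of the MA12 rats. Mean log2 CPM was 8.16 ± 0.21 in MA24, 7.96 ± 0.15 in the non-addicted rats and 7.91 ± 0.20 in MA12 (n = 4 each), and no neighbours in this order were separated beyond the spread. *Ntsr2* had a log2FC of 0.25 between MA24 and MA12 (SE 0.12, 95% interval -0.00087 to 0.50, edgeR adjusted p = 0.214). The value was 0.04 between the non-addicted and MA12 rats (SE 0.11, 95% interval -0.19 to 0.28, edgeR adjusted p = 0.917). It was -0.20 between the non-addicted and MA24 rats (SE 0.11, 95% interval -0.44 to 0.03, edgeR adjusted p = 0.344). All 3 intervals lie inside a FC of 1.5 in either direction.

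The MA12 rats numbered without an N had the lowest *Ntsr2* levels of their group, and among rats numbered with an N the log2FC between MA24 and MA12 was 0.11. The summed level of 10 astrocyte markers was 3317 to 4531 CPM in MA12, 3796 to 4283 CPM in MA24 and 3446 to 4280 CPM in the non-addicted rats, with a Pearson correlation with *Ntsr2* of 0.757 over the 12 libraries. The microglia list (0.751) and the projection neuron list (0.741, a sum that rests largely on *Ppp1r1b*) were as close to it. Of the 10 astrocyte markers, 1 was a DEG between MA24 and MA12, beside 1.72% of all genes lower. It was the glutamate transporter gene *Slc1a2* (log2FC -0.70, edgeR adjusted p = 0.0328), whose log2FC had the opposite sign to that of *Ntsr2*. This call was lost in 10 of 17 alternatives, among them DESeq2 and those without rat 31, 4N, 14N or 15N.

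*Sort1*, the sortilin gene, had 13579 to 23298 counts per rat. Its level in MA12 was 918 CPM in rat 21, 916 in rat 31, 1095 in rat 4N and 909 in rat 7N. In MA24 it was 975 CPM in rat 9N, 691 in rat 14N, 796 in rat 15N and 809 in rat 16N. In each of these groups 1 rat stood above its fellows, rat 4N in MA12 and rat 9N in MA24, and without rat 9N the MA24 levels lay below those of all MA12 rats.

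In the non-addicted rats *Sort1* stood at 708 CPM in rat 9, 810 in rat 11, 820 in rat 12 and 974 in rat 13, much the same span as in MA24. Rat 13, which had the lowest *Nts* of its group, had the highest *Sort1*, and rat 9 the lowest. Mean log2 CPM was 9.90 ± 0.13 in MA12, 9.68 ± 0.19 in the non-addicted rats and 9.66 ± 0.20 in MA24 (n = 4 each).

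The *Sort1* log2FC was -0.23 between MA24 and MA12 (SE 0.11, 95% interval -0.46 to 0.0015, edgeR adjusted p = 0.215). For the non-addicted against the MA12 rats it was -0.22 (SE 0.11, 95% interval -0.45 to 0.02, edgeR adjusted p = 0.449). It was 0.01 between the non-addicted and MA24 rats (SE 0.12, 95% interval -0.23 to 0.25, edgeR adjusted p = 0.962). None passed the test, and none of the intervals reached a FC of 1.5.

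**Figure D3:**
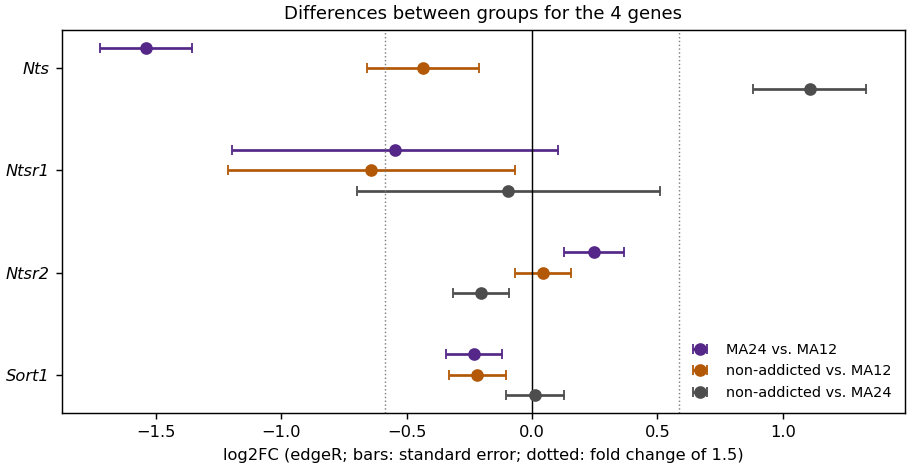
edgeR log2FC (x axis) with its standard error for the 4 genes in the 3 comparisons, with dotted lines at a fold change of 1.5 in each direction. Nts lies beyond the lines at -1.54 (MA24 vs. MA12) and 1.11 (non-addicted vs. MA24), Ntsr2 and Sort1 lie within 0.25 of 0, and the bars of Ntsr1 are the widest.

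Genes that make and break down the peptide gave no DEG. Of 8 processing genes, which include the prohormone convertases *Pcsk1*, *Pcsk2* and *Pcsk5*, 6 were tested between MA24 and MA12 and 0 passed. The 2 with the smallest p were *Pcsk5* (log2FC 0.64, edgeR adjusted p = 0.113) and *Pcsk1* (-0.45, adjusted p = 0.134), and in the comparison of the non-addicted with the MA24 rats the same 2 genes had values of -0.51 (adjusted p = 0.237) and 0.68 (adjusted p = 0.122). *Pcsk2*, the other main neuronal convertase, had a log2FC of -0.21 between MA24 and MA12 (adjusted p = 0.222). Of 6 genes for neurotensin-degrading peptidases 5 were tested and 0 passed, with *Thop1* (thimet oligopeptidase, log2FC 0.22, adjusted p = 0.198) and *Nln* (neurolysin, -0.15, adjusted p = 0.438) showing the smallest p.

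Signalling genes below the Gq-coupled receptor were lower in MA24 than in MA12 in part. Of 10 genes, all tested, 2 were DEGs, both lower, a share to be read against 1.72% of all genes. They were *Prkca*, a protein kinase C isoform (log2 CPM 4.95 against 5.75, log2FC -0.78, SE 0.17, edgeR adjusted p = 0.0144), and *Gnaq*, the Gq alpha subunit (4.65 against 5.29, log2FC -0.60, SE 0.16, adjusted p = 0.0351). In addition *Plcb1* (log2FC -0.40, adjusted p = 0.0372), *Plcb4* (-0.40, adjusted p = 0.0466) and *Prkcb* (-0.32, adjusted p = 0.0472) had an adjusted p below 0.05 with a FC under 1.5, as against 5.16% of all genes with such a p. The median of the list was -0.27.

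Both calls of this list were lost when only rats numbered with an N were used (0 of 10 DEGs, median log2FC -0.31), and with the kind of number as a covariate (0 of 10, median -0.33). Leaving out single rats left 1 or 2 DEGs, with *Gnaq* lost without rat 21, 31, 4N, 14N or 15N. In all, *Gnaq* lost its call in 10 of 17 alternatives. Among them were the joint fit, the fit without the variance filter and that with at least 10 counts in every library. In the non-addicted rats none of the 10 differed from MA12 (smallest adjusted p, *Prkca* 0.291) or from MA24 (*Prkca* 0.194) in the test. *Sort1* correlated with the summed level of this list over the 12 libraries (Pearson r = 0.858, a description).

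Genes that switch receptors off or recycle them gave a pair of DEGs in the same comparison. Of 9 listed, 7 were in the table and 6 were tested between MA24 and MA12, and the 2 DEGs were lower in MA24, beside 1.72% of all genes. They were *Grk5*, a receptor kinase (log2FC -0.65, SE 0.15, edgeR adjusted p = 0.0166), and *Arrb1*, beta-arrestin 1 (-0.59, SE 0.17, adjusted p = 0.0453). The median of the list was -0.13. With only the rats numbered with an N there were 0 DEGs of 7, and leaving out rat 21 or rat 16N also gave 0 of 6. *Arrb1* lost its call in 14 of 17 alternatives, among them those without rat 21, 31, 4N, 14N, 15N or 16N.

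The relatives and partners of sortilin gave no DEG in any comparison. Between MA24 and MA12, 6 of 10 were tested, 5 had a log2FC below 0 and the median was -0.22. *Sorcs1*, a related sorting receptor of neurons, had a log2FC of -0.30 (edgeR adjusted p = 0.134) and *Gga1*, an adaptor that carries sortilin to lysosomes, 0.22 (adjusted p = 0.212).

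**Figure D4:**
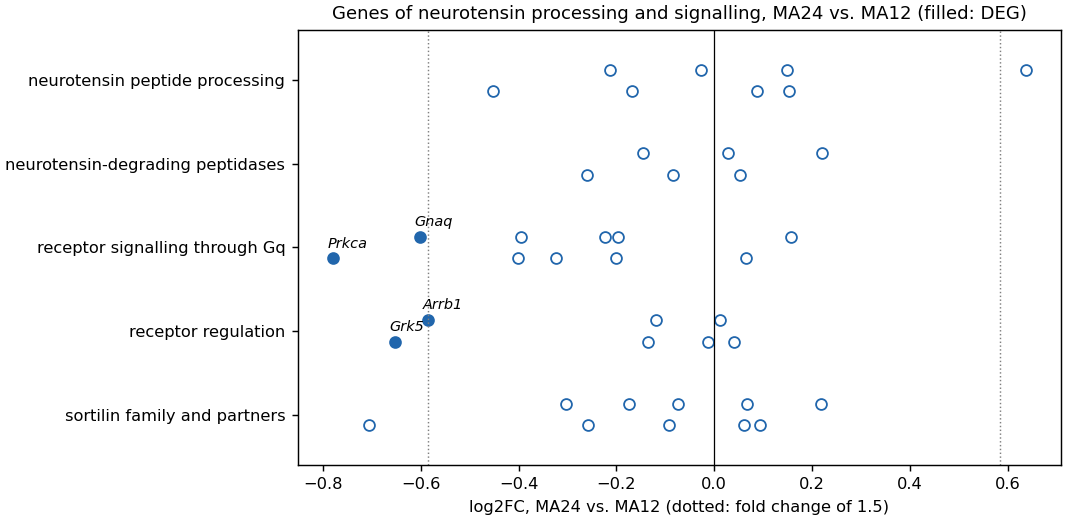
log2FC between MA24 and MA12 of each gene of 5 lists around neurotensin, with dotted lines at a fold change of 1.5. DEGs are filled, and genes that the variance filter removed are drawn from the fit without it. The 4 filled points are Prkca (-0.78), Gnaq (-0.60), Grk5 (-0.65) and Arrb1 (-0.59), all below 0.

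Other neuropeptide genes differed among themselves in direction. Of 11 in the table, 10 were tested between MA24 and MA12 and 0 were DEGs (4 log2FC values above 0, 6 below, median -0.19). *Pdyn*, the dynorphin precursor of direct-pathway neurons, had a log2FC of -0.58 (SE 0.11, edgeR adjusted p = 0.00838, a FC just under 1.5). It was a DEG, lower in MA24, with only the rats numbered with an N, with the kind of number as a covariate, and without rat 31 or 9N. It was also a DEG lower in the non-addicted than in the MA12 rats (-0.65, adjusted p = 0.0281, beside 0.149% of all genes lower). The latter call was lost without rat 11, 12, 21, 4N or 7N, and against only the MA12 rats numbered without an N. *Pdyn* differed little between the non-addicted and MA24 rats (-0.08, adjusted p = 0.740), where *Nts* had a log2FC of 1.11.

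*Cartpt*, the precursor of the CART peptides, was the only DEG of the 11 listed between the non-addicted and MA24 rats, beside 0.326% of all genes higher. It was higher in the non-addicted rats (log2FC 1.92, SE 0.40, edgeR adjusted p = 0.0363). This call was lost in 9 of 15 alternatives, among them DESeq2, the joint fit, 3 other filters and those without rat 11, 12, 9N or 15N. *Tac1*, the substance P precursor, had log2FC values of -0.07, -0.14 and -0.06 in the 3 comparisons and passed in none. *Penk*, the enkephalin precursor of indirect-pathway neurons, had 0.07, -0.14 and -0.21, the first from the fit without the variance filter, and passed in none. *Vip*, with 0 to 22 counts, had the second smallest p of the list between MA24 and MA12 (log2FC 1.93, adjusted p = 0.154).

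**Figure D5:**
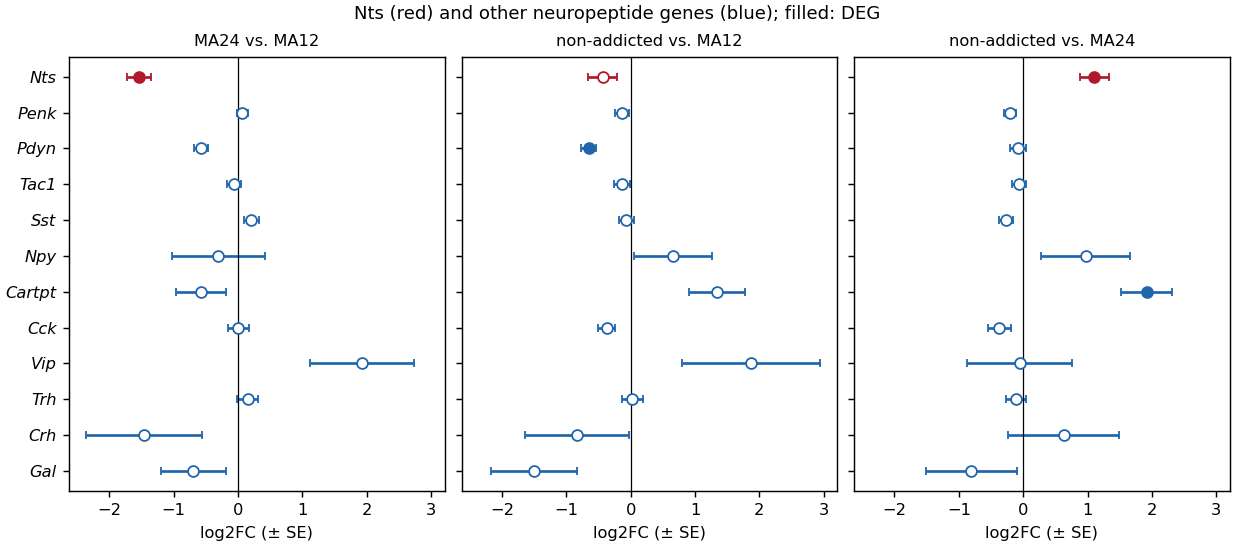
edgeR log2FC with its standard error for Nts (red) and 11 other neuropeptide genes (blue) in the 3 comparisons, filled where the gene was a DEG. Filled points are Nts at -1.54 on the left, Pdyn at -0.65 in the middle, and Nts at 1.11 and Cartpt at 1.92 on the right. Nts was selected on values behind both of its filled points, so their fill is no support.

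Of 11 genes for factors of the AP-1, CREB and glucocorticoid sites, 10 were tested between MA24 and MA12. Of these 1 was a DEG, lower in MA24, beside 1.72% of all genes lower. This was *Creb1*, whose protein binds cyclic AMP response elements (log2 CPM 2.41 against 3.33, log2FC -0.88, SE 0.21, edgeR adjusted p = 0.0248, from 72 to 263 counts). Its call was lost without rat 21, 14N or 15N, with only the rats numbered with an N, and with the kind of number as a covariate. Its relative *Atf2* had a log2FC of -0.40 (adjusted p = 0.0313), under the FC limit. *Fos*, a component of AP-1, ranged from 53 to 450 counts and had a log2FC of -0.80 (SE 0.40, adjusted p = 0.237), and *Nr3c1*, the glucocorticoid receptor gene, had -0.25 (adjusted p = 0.123). In both comparisons with the non-addicted rats 0 of 10 were DEGs. Between the non-addicted and MA24 rats 9 of 10 were above 0 (median 0.23), with *Creb1* at 0.54 (adjusted p = 0.237).

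The genes beside *Nts* on the chromosome, in the order of the GRCr8 table, did not pass the test in any comparison. On one side *Mgat4c*, *Cep290* and *Tmtc3* had log2FC values of -0.25, -0.16 and -0.20 between MA24 and MA12. On the other side *Rassf9* had -0.63 (SE 0.35, edgeR adjusted p = 0.285) and *Slc6a15*, a neutral amino acid transporter gene, -0.12. *Alx1*, with 0 to 9 counts, was not tested.

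Genes whose log2 CPM was most like that of *Nts* over the 12 rats, among 10764 genes with a mean count of at least 50, were *Runx1t1*, a transcriptional corepressor (Pearson r = 0.969), *Med14*, a Mediator subunit (0.928), *Slitrk1*, a neuronal membrane protein (0.927), *Arl4a* (0.925) and *Ikzf5* (0.917). The least like were *Bag1*, a co-chaperone (-0.956), *Fam110d* (-0.919) and *Ctsa*, a lysosomal protease (-0.915). For deviations from the group means, *Runx1t1* stood at 0.876, *Bag1* at -0.848 and *Med14* at 0.678. All 12 libraries and the group differences are shared by these values.

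For *Ntsr2* the most like genes were *Sdsl* (Pearson r = 0.955), *Hrh3*, the histamine H3 receptor gene (0.945), *Fbxw8* (0.942), *Oaf* (0.942) and *Rabl6* (0.940), and the least like were *Ric3*, a chaperone of nicotinic receptors (-0.965), *Ccdc25* (-0.916) and *Spryd7* (-0.916). For *Sort1* they were *Kif5c*, a neuronal kinesin (0.968), *Qk*, an RNA-binding protein of glia (0.952), *Abhd2* (0.944), *Hs6st3* (0.940) and *Megf10*, an astrocytic engulfment receptor (0.938), with *Zufsp* (-0.950), *Tial1* (-0.936) and *Trafd1* (-0.932) at the other end. For *Ntsr1*, whose values rest on few counts and on rat 21, *Fut11* (0.854), *Zdhhc20* (0.852), *Gmcl1* (0.83), *Hiat1* (0.823) and *Kcnc4*, a potassium channel gene (0.821), stood highest, and *Crlf2* (-0.823), *Xylb* (-0.813) and *Ift20* (-0.798) lowest. Among the 4 genes themselves the correlation was -0.605 between *Nts* and *Ntsr2*, 0.232 between *Nts* and *Ntsr1*, 0.230 between *Nts* and *Sort1*, and 0.0334 between *Ntsr2* and *Sort1*.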

How the data were processed

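Reads were trimmed (Cutadapt 1.18), mapped to rn6 (STAR 2.7.0e) and assigned to genes (featureCounts) by the authors, whose processing notes also list HTSeq 0.12.4. They deposited unnormalized raw counts of 17337 genes in 12 columns. How strands and multi-mapped reads were handled is not given in the sources used here. RNA of all rats was extracted in one batch. The members and gene lists were chosen with earlier results of these data known.

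Each comparison was fitted on its own 2 groups, after dropping genes with a mean count of 4 or less and then the 15% least variable in log2 CPM (edgeR 4.0.16 in R 4.3.3, TMM, glmQLFit and glmQLFTest). Unadjusted p was below 0.05 for 2538 (MA24 vs. MA12), 1327 (non-addicted vs. MA12) and 1879 (non-addicted vs. MA24) genes. On simulated counts for MA24 vs. MA12 (10754 genes, 200 of them changed 2-fold) 77.5% of the changed genes were recovered with 5 false calls. Single values were compared by two-sided exact permutation tests. Alternatives were other scaling (RLE), other tests (DESeq2 1.42.0, likelihood ratio), other filters, a joint fit of all groups, omission of each rat, and the kind of rat number. Their list counts were added after the data were seen. Named were the members, list genes past the DEG thresholds, or else the 2 of smallest p, *Creb1*, *Fos* and *Nr3c1*, the 5 most and 3 least similar genes and the neighbours of *Nts*. *Tac1*, *Penk*, *Vip*, *Pcsk2*, *Atf2* and the Gq genes under the FC limit were named after their values were seen. Motifs and neighbours came from RefSeq tables of GRCr8, not of rn6. Rats are labelled as separate animals, and p-values measure the spread between them.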

Additional observations from a re-analysis of the deposited data

Results flagged for a closer look

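In 5 of 72 groups of 4 rats examined (the 4 genes, the summed levels of the 18 lists and the relative levels of *Nts*), 1 rat stood apart from the other 3 by Dixon's ratio of its gap to the group's range past its 95% critical value, where chance at 1 in 20 gives 3.6. *Ntsr2* was highest in MA24 rat 16N (ratio 0.852, log2 CPM 8.47 against 8.01 to 8.08). *Sort1* was highest in MA12 rat 4N (ratio 0.946, log2 CPM 10.1 against 9.83 to 9.84). The summed peptide processing genes were highest in MA24 rat 16N (ratio 0.865, log2 12.02 against 11.93 to 11.94). The summed thalamus markers were highest in MA24 rat 9N (ratio 0.880, log2 6.19 against 6.07 to 6.08), and the summed microglia markers in MA12 rat 4N (ratio 0.844, log2 8.70 against 8.51 to 8.54). Without rat 16N, the *Ntsr2* log2FC between MA24 and MA12 was 0.13 in place of 0.25, and without rat 4N that of *Sort1* was -0.16 in place of -0.23.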

How the results depend on the processing

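Between MA24 and MA12 the log2FC of *Nts* lay between -1.66 and -1.18 over 17 alternatives. Between the non-addicted and MA24 rats the *Nts* log2FC stayed near 1.11. Its place among the DEGs rests on values used in its selection and is no support. That place was lost without the variance filter, with no filter, with a minimum of 10 counts per library and with all 3 groups in the fit (log2FC 1.11 in each). The cause was not tested. Leaving out 1 rat gave 0.86 to 1.30. *Nts* relative to the other neuropeptides then differed by 0.81 to 1.21 and relative to the projection neuron markers by 0.77 to 1.32.

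*Ntsr1* changed sign between MA24 and MA12 with only the rats numbered with an N (0.16) and with the kind of number as a covariate (0.14). Leaving out 1 rat gave -0.83 to 0.28 there, -0.88 to 0.18 between the non-addicted and MA12 rats and -0.44 to 0.19 between the non-addicted and MA24 rats. The same gave -0.020 to 0.14 for *Ntsr2* between the non-addicted and MA12 rats, and -0.078 to 0.11 for *Sort1* between the non-addicted and MA24 rats. In all, 40 of 46 alternative values of *Ntsr1*, 47 of 49 of *Ntsr2* and 46 of 49 of *Sort1* had the sign and the call of the reported value. For *Nts* it was 40 of 49, a count that includes the comparison it was selected on and is no support. Between the non-addicted and MA24 rats, *Nts* kept its call in 3 of 8 fits with 1 rat left out and in 3 of 7 other settings. At least 10 counts in every library left no value for *Ntsr1*. A prior count of 0.5 moved no group mean of the 4 genes by more than 1 SD. Depth limits *Ntsr1*, with 2 to 43 counts, and *Nts* in MA24, with 99 to 131 counts. The latter vary by no more than counting error, a small spread that the selection of *Nts* favours. With 4 rats a group the smallest exact permutation p is 0.0286. No paired analysis was possible because the groups share no replicate numbers.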

Other observations

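Among marker lists not described above, 2 vascular genes were DEGs, both lower in the non-addicted rats. Of 6 endothelial markers tested, 1 was a DEG against MA12, beside 0.149% of all genes lower. Against MA24, 2 of 6 were, both lower, beside 0.456% of all genes in either direction, most of which (0.326% of all genes) were higher. *Kdr*, a receptor of vascular endothelial growth factor, had a log2FC of -1.08 against MA12 (edgeR adjusted p = 0.0128) and of -0.85 against MA24 (adjusted p = 0.0354), and *Cldn5*, a tight junction gene, of -0.68 against MA24 (adjusted p = 0.0241). All 6 endothelial markers tested were below 0 in both comparisons, with summed levels of 307 to 432 CPM in the non-addicted rats, 412 to 533 CPM in MA12 and 489 to 541 CPM in MA24. Over all genes tested, 5133 of 10758 were above 0 against MA12 and 5404 of 10744 against MA24. Of 15 alternatives the calls against MA24 were lost in 7 for *Cldn5* and 9 for *Kdr*, in both without rat 11, 12, 15N or 16N and in that of *Kdr* also without rat 9N. *Nts* had the opposite sign against MA24 (1.11), and its correlation with the summed endothelial markers over the 12 libraries was -0.420, given as a description. The shared sign was not particular to the endothelial list. All 9 oligodendrocyte markers were below 0 in both comparisons (median log2FC -0.19 against MA12 and -0.34 against MA24). Of 8 microglia markers, 6 were below 0 against MA12 and 8 against MA24 (medians -0.12 and -0.23). The oligodendrocyte, microglia, hypothalamus, cortex, thalamus and choroid plexus lists held no DEG in any comparison.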
